A study of Mus musculus with 8 samples.

Results

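The 10 genes described here regulate or mark primitive endoderm: Gata4, Gata6, Sox17, Sox7, Foxa2, Hnf4a, Pdgfra, Dab2, Sparc and Afp. They are a list of names whose rule uses no measured value, though it was drawn up with earlier results of these data known, and each was matched by its GENCODE vM1 symbol to an Ensembl gene among the 37620 genes of the count tables. Levels were read as CPM, the sense-strand reads of a gene scaled to a total of 1000000 gene reads.

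The study profiled mouse pluripotent stem cells under added signals, alongside mesoderm progenitors, by poly-A RNA-seq in 8 libraries. Cells of the R1 embryonic stem cell line were grown without feeders in serum-containing medium under 2i (the GSK3 inhibitor CHIR99021 with the MEK inhibitor PD0325901, day 5), under 2iJ (2i with a JAK inhibitor, day 5) or under 2iJ+B-A (2iJ with BMP4 and ALK5 inhibitor II, days 2, 5 and 11). The sorted library held GFP-positive cells of a CDX2-GFP line taken on day 2 of 2iJ+B-A, so line and sort differ from the other cultures together. Mesoderm progenitors came from R1 embryoid bodies in serum-free B-27 and N-2 medium that were re-aggregated with BMP4, Activin A and Wnt3a, and were collected on day 3 (before IWP-2, a blocker of Wnt secretion) or day 4 (the labels' days; IWP-2 was added on day 3). MEK was inhibited in all but the mesoderm progenitors. With 1 library for each condition and day, the p-values measure the spread between the days of a group, and nothing in the labels says whether those came from separate cultures.

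Primitive endoderm is the extraembryonic layer that separates from the epiblast in the blastocyst and gives rise to parietal and visceral endoderm. FGF signaling through MEK and ERK favors this layer over the Nanog-expressing epiblast, Gata6 acts first, and Sox17, Gata4, Pdgfra and Sox7 follow. Parietal endoderm is known for secreting basement membrane, visceral endoderm for endocytosis and serum-type secreted proteins. Several of the 10 genes also have other homes: Gata4, Gata6 and Pdgfra in cardiac and lateral mesoderm, Sox17 and Foxa2 in definitive endoderm, Sparc and Pdgfra in fibroblasts, and Dab2 and Gata6 in trophoblast.

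Promoter sequence was read for the genes with a RefSeq window (GRCm38.p6, 250 bases before to 50 after a transcript start), since GATA factors head this group of genes. Such windows were read for 6 of the 10 genes, 10 windows in all, and none was read for Gata4, Gata6, Sox17 or Sox7. GATA factors are known to bind AGATAA or, with a final guanine, the word AGATAG, and likewise TGATAA or, with a final guanine, the word TGATAG. These words were searched on both strands. Capitals mark them in the 3 windows that held any, which belong to Dab2 (chr15:6299539-6299838, plus strand), Hnf4a (chr2:163506607-163506906, plus strand) and Foxa2 (chr2:148045415-148045714, minus strand). The other 7 windows held none, among them those at other starts of Dab2, Hnf4a and Foxa2. Of these, the window of Sparc (chr11:55420031-55420330, minus strand), the most abundant of the 10 transcripts, is shown for comparison.
Dab2: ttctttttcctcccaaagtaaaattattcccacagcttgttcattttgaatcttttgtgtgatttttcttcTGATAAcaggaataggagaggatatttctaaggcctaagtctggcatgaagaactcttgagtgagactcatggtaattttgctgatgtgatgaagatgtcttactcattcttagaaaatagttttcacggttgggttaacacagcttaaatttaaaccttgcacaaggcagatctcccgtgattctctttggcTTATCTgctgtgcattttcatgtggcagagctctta
Hnf4a: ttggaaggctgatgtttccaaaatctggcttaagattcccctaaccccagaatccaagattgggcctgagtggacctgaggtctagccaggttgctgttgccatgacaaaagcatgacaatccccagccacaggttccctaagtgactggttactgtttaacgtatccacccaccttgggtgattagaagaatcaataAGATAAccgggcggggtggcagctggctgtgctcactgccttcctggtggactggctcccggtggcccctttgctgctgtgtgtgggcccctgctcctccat
Foxa2: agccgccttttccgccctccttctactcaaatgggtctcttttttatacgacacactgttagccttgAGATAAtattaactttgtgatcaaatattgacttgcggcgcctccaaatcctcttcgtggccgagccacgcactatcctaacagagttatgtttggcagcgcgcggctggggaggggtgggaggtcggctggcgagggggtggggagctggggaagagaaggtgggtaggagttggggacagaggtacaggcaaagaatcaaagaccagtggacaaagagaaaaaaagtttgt
Sparc: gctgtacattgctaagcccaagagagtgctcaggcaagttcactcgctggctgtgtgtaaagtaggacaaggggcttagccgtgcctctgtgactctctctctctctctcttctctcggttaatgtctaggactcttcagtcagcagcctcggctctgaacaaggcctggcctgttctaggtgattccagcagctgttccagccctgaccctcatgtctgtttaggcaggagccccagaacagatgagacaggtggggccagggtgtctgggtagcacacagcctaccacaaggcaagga
In the windows shown, the words lay 179 bases before and 14 bases after the transcript start of Dab2 (the latter, TTATCT, is AGATAA read on the other strand). They lay 52 bases before that of Hnf4a and 183 bases before that of Foxa2. Of all 32851 promoter windows of this length, 29.76% held such a word, so 3 of 10 windows is near the background share. A match describes these letters and not a bound site.

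The libraries held 19810855 to 31453888 gene-assigned reads, at which 3 counts correspond to 0.0954 to 0.151 CPM. In the sorted library 29.7% of read pairs were unmapped, against 2.2% to 3.85% in the other 7, and it carried 235 CPM of Cdx2 against 15.0 CPM in the unsorted day 2 culture. In mesoderm progenitors days 3 and 4 gave 547 and 6.30 CPM of the primitive streak factor T and 42.1 and 540 CPM of the cardiac factor Hand1. The study's methods name a correction between experiments of different days. The labels do not say which library belongs to which experiment, and every library title ends in the same tag, (II). Sample codes start with C in the mesoderm progenitors, E in the sorted cells and J in all others. Whether this letter marks an experiment is not stated. If it does, an experiment effect and these groups cannot be told apart, while the 5 libraries of 2i, 2iJ and 2iJ+B-A share the letter. If it does not, the libraries cannot be assigned to experiments, and an experiment effect was not tested.

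**Figure D1:**
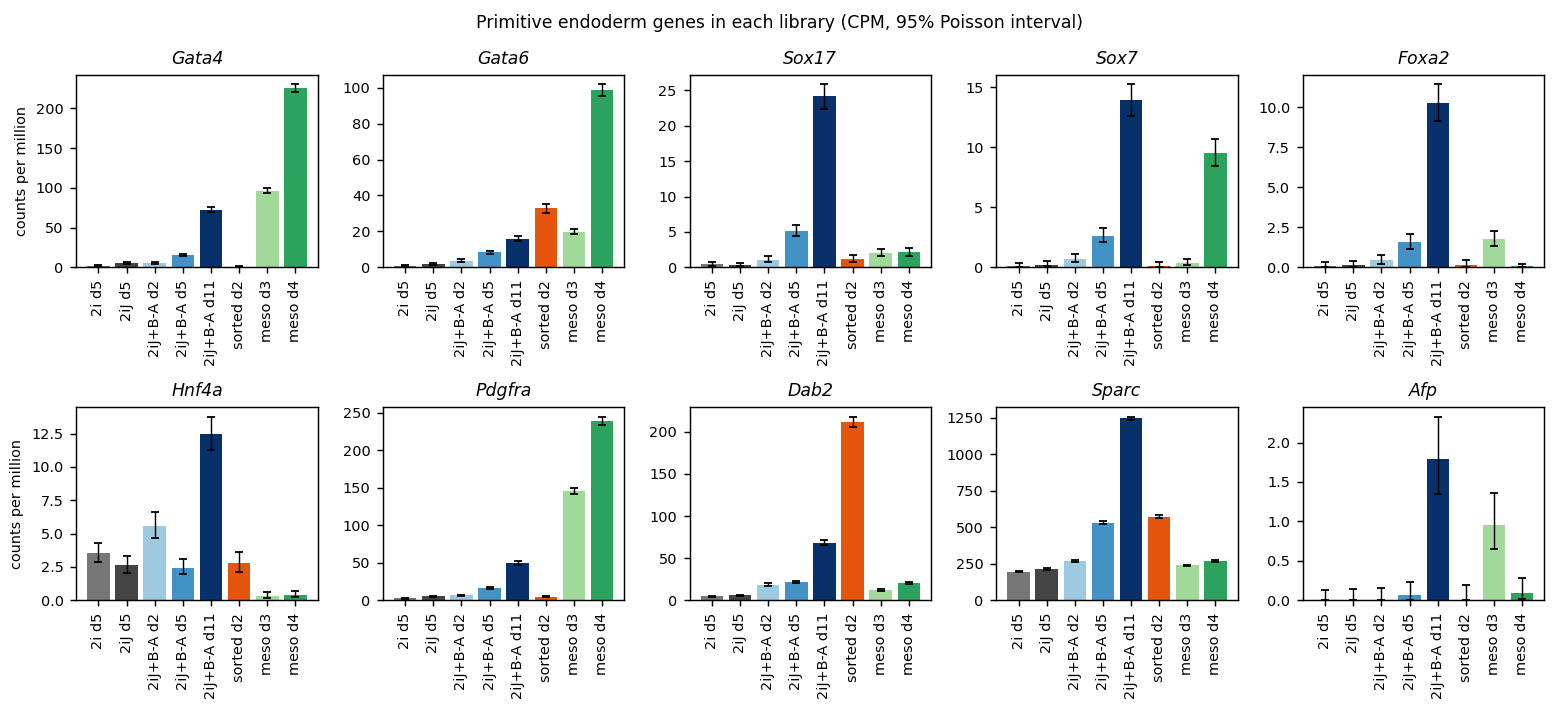
Each panel gives the level of a gene in the 8 libraries, in CPM on a linear axis from 0, with bars for the value and whiskers for the exact 95% Poisson interval of the count. Sox17, Sox7, Foxa2, Hnf4a, Sparc and Afp were highest on day 11 of 2iJ+B-A, Gata4, Gata6 and Pdgfra on day 4 of mesoderm progenitors, and Dab2 in the sorted cells.

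Across the libraries the 10 genes did not keep together. All 10 exceeded 1 CPM on day 11 of 2iJ+B-A, 9 on day 5 and 7 on day 2, against 5 in 2i and 6 in 2iJ. On day 11 of 2iJ+B-A, 6 of the 10 had their highest level of the series. For neither count was the share over all genes taken, so both only describe the list. Their summed level was 210 CPM in 2i, 236 CPM in 2iJ, 309, 605 and 1517 CPM on days 2, 5 and 11 of 2iJ+B-A, 828 CPM in the sorted cells, and 518 and 864 CPM in mesoderm progenitors on days 3 and 4. Sparc made up 30.98% to 93.15% of that sum. Without it the other 9 summed to 14.4 CPM in 2i and 21.5 CPM in 2iJ, then 41.2, 73.6 and 270 CPM over the 3 days of 2iJ+B-A. In bulk RNA, fewer cells of a type and less RNA per cell cannot be told apart. All 10 genes passed the filter on low counts (10 counts in 2 libraries), Afp through 2 libraries, Foxa2 through 4 and Sox7 through 5. These are the libraries where each is highest, though with as few as 11 counts for Foxa2 and 12 for Sox7.

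Gata4 (ENSMUSG00000021944; NCBIM37, chromosome 14, 63817759 to 63890529, minus strand) and Gata6 (ENSMUSG00000005836, chromosome 18) encode zinc-finger factors that direct endoderm and heart development. Gata4 stood at 2.31 CPM in 2i and 5.41 CPM in 2iJ, at 5.18, 15.5 and 72.8 CPM on days 2, 5 and 11 of 2iJ+B-A, at 0.757 CPM in the sorted cells, and at 96.6 and 226 CPM in mesoderm progenitors on days 3 and 4. Gata6 stood at 0.888, 2.02, 3.67, 8.30 and 16.0 CPM in the same order up to day 11 of 2iJ+B-A, then at 32.8 CPM in the sorted cells and at 19.9 and 98.7 CPM in mesoderm progenitors. Gata4 was thus lowest in the sorted cells, where Gata6 had its second-highest level. Among neighbors in the order of levels, the counting intervals of Gata4 overlapped only between 2iJ and day 2 of 2iJ+B-A, and those of Gata6 for none of its 7 neighboring pairs.

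The ratio of Gata4 to Gata6 transcripts per length (as TPM, counts divided by exon length and scaled to a fixed total) set the sorted cells apart. Gata4 exceeded Gata6 in 7 of the 8 libraries, with ratios of 2.12 in 2i and 2.18 in 2iJ, 1.15, 1.53 and 3.71 on days 2, 5 and 11 of 2iJ+B-A, and 3.97 and 1.87 in mesoderm progenitors on days 3 and 4. In the sorted cells the ratio was 0.019, so Gata6 transcripts were 53.0 times as abundant per length. On day 2 of the unsorted culture in the same signals the levels were 3.28 TPM for Gata4 and 2.85 TPM for Gata6.

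**Figure D2:**
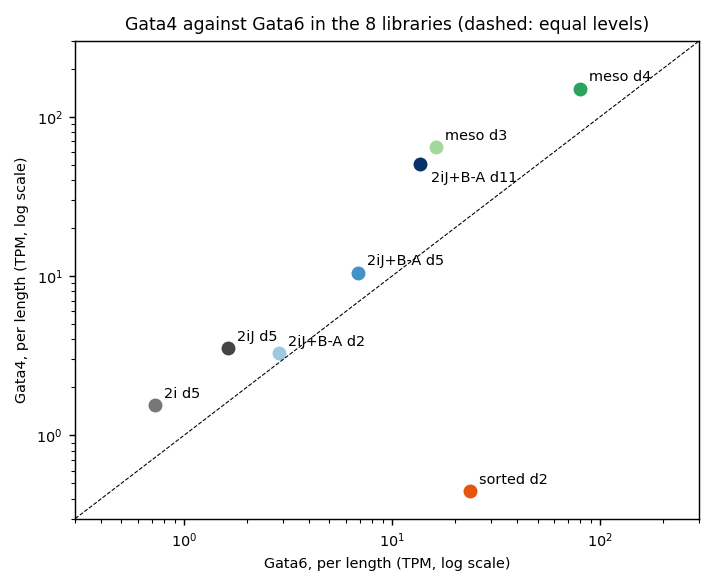
Each point is a library placed by its level of Gata6 (horizontal) and Gata4 (vertical) in TPM, both axes logarithmic, with a dashed line at equal levels. The sorted cells lie far below the line at 23.6 TPM of Gata6 and 0.45 TPM of Gata4, and the other 7 libraries lie above it.

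Sox17 (ENSMUSG00000025902; chromosome 1, 4481009 to 4486494, minus strand) and Sox7 (ENSMUSG00000063060; chromosome 14, 64562511 to 64569569, plus strand) are SOX F factors of extraembryonic endoderm and of endothelium. Sox17 was at 0.426 CPM in 2i, 0.350 CPM in 2iJ and 1.06, 5.12 and 24.1 CPM on days 2, 5 and 11 of 2iJ+B-A. It stayed at 1.16 CPM in the sorted cells and at 2.07 and 2.10 CPM in mesoderm progenitors on days 3 and 4. Sox7 was at 0.142, 0.234, 0.693, 2.61 and 13.9 CPM from 2i to day 11 of 2iJ+B-A, at 0.151 CPM (3 counts) in the sorted cells and at 0.382 and 9.53 CPM in mesoderm progenitors on days 3 and 4. Day 11 of 2iJ+B-A was thus the highest library for both, and for Sox7 alone day 4 of mesoderm progenitors came near it. The third SOX F gene, Sox18, did not exceed 0.68 CPM in any of the 8 libraries.

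Foxa2 (ENSMUSG00000037025; chromosome 2, 147868613 to 147872705, minus strand), a forkhead pioneer factor of endoderm, was at 0.107 CPM in 2i, 0.156 CPM in 2iJ, 0.448, 1.56 and 10.3 CPM on days 2, 5 and 11 of 2iJ+B-A, 0.151 CPM in the sorted cells, and 1.75 and 0.0646 CPM in mesoderm progenitors on days 3 and 4. Of its 8 values, 5 rested on 11 counts or fewer. Hnf4a (ENSMUSG00000017950; chromosome 2, 163332544 to 163398646, plus strand), a nuclear receptor of visceral endoderm and liver, followed another order: 3.52 CPM in 2i, 2.61 CPM in 2iJ, 5.58, 2.45 and 12.5 CPM over the days of 2iJ+B-A, 2.78 CPM in the sorted cells and 0.318 and 0.388 CPM in mesoderm progenitors. It was the only member below its 2i level in both mesoderm libraries, and its intervals overlapped between 2i, the sorted cells, 2iJ and day 5 of 2iJ+B-A taken in that order.

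Pdgfra (ENSMUSG00000029231; chromosome 5, 75548316 to 75594229, plus strand), the PDGF receptor that supports survival of primitive endoderm, was at 2.49 CPM in 2i and 5.14 CPM in 2iJ, at 6.36, 16.5 and 49.9 CPM over the days of 2iJ+B-A, at 4.44 CPM in the sorted cells and at 145 and 240 CPM in mesoderm progenitors on days 3 and 4. Its order resembled that of Gata4. The transcript of its ligand Pdgfa was at 62.0 CPM in 2i, at 70.3, 132 and 146 CPM over the days of 2iJ+B-A and at 9.21 CPM on day 4 of mesoderm progenitors, where the receptor was highest. Dab2 (ENSMUSG00000022150; chromosome 15, 6249788 to 6390712, plus strand), an endocytic adaptor that sorts receptors such as Lrp2, was at 4.55 CPM in 2i, 5.60 CPM in 2iJ, 18.2, 21.4 and 68.3 CPM over the days of 2iJ+B-A, 212 CPM in the sorted cells and 12.1 and 20.3 CPM in mesoderm progenitors. A second Ensembl gene of the same symbol, which shares 1374 exon bases with it, had 0 counts in every library, and reads common to both models may be missing from these values.

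Sparc (ENSMUSG00000018593; chromosome 11, 55208002 to 55233582, minus strand) encodes a secreted collagen-binding protein made in quantity by parietal endoderm. Its level was 196 CPM in 2i, 215 CPM in 2iJ, 268, 532 and 1247 CPM over the days of 2iJ+B-A, 574 CPM in the sorted cells and 238 and 268 CPM in mesoderm progenitors. Per length it was the most abundant of the 10 in each library, at 1003 TPM on day 11 of 2iJ+B-A, where Gata4 followed at 50.4 TPM. Afp (ENSMUSG00000054932; chromosome 5, 90919740 to 90937933, plus strand), the fetal serum protein of visceral endoderm, had 0 counts in 2i, 2iJ, the sorted cells and day 2 of 2iJ+B-A, 2 counts on day 5 (0.0636 CPM) and 55 counts on day 11 (1.79 CPM). In mesoderm progenitors it had 30 counts on day 3 (0.954 CPM) and 3 counts on day 4 (0.0969 CPM). A count of 0 in the shallowest of these libraries allows up to 0.186 CPM by the exact 95% interval, and the floor of 3 counts stands at 0.151 CPM there. Intervals and limits of this kind cover counting error only.

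The days of 2iJ+B-A address how the culture changed with longer exposure. From day 2 to day 11 all 10 genes were at least 2-fold higher, against 10.5% of the 16760 genes with more than 3 counts in either library, of which 8.57% were at least 2-fold lower. With 1 library per day there is no replicate check on these ratios. Foxa2 was 22.9-fold higher (95% counting interval 12.6 to 46.4), Sox17 22.8-fold (15.4 to 35.1), Sox7 20.1-fold (12.4 to 34.8) and Gata4 14.1-fold (11.8 to 17.0). Afp, with 0 counts on day 2, was at least 14.6-fold higher against a floor of 3 counts in that library. It was compared only because of its counts on day 11, so its direction was set in advance. Pdgfra was 7.85-fold higher, Sparc 4.66-fold, Gata6 4.37-fold, Dab2 3.76-fold and Hnf4a 2.23-fold (1.83 to 2.73). The median log2 ratio was 3.39 for the 10 genes and 0.03 for all genes compared.

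The 2 steps of this course differed between members. By day 5, Sox17 was 4.83-fold, Sox7 3.76-fold, Foxa2 3.47-fold, Gata4 3.00-fold, Pdgfra 2.60-fold and Gata6 2.26-fold above day 2, so 6 of the 9 genes with more than 3 counts were at least 2-fold higher, against 10.2% of all genes. Sparc was 1.99-fold higher and Dab2 1.18-fold (1.04 to 1.33). This early rise was not particular to the list. Over the same days 7 of 10 cardiac and lateral mesoderm genes were at least 2-fold higher, as were 6 of 14 basement membrane and 3 of 6 trophectoderm genes. The median log2 ratio was 1.37 for the mesoderm genes and 1.38 for the 9 members. Hnf4a was 2.28-fold lower on day 5 than on day 2, the only member past 2-fold in that direction, against 4.80% of all genes. From day 5 to day 11, 9 of 10 were at least 2-fold higher, against 4.38% of all genes, and none was 2-fold lower, against 7.06%. Gata6 was the exception at 1.93-fold (1.66 to 2.26). In this step Hnf4a was 5.09-fold and Dab2 3.19-fold higher. Of the 10 cardiac and lateral mesoderm genes, none was 2-fold higher in this step and 6 were at least 2-fold lower.

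**Figure D3:**
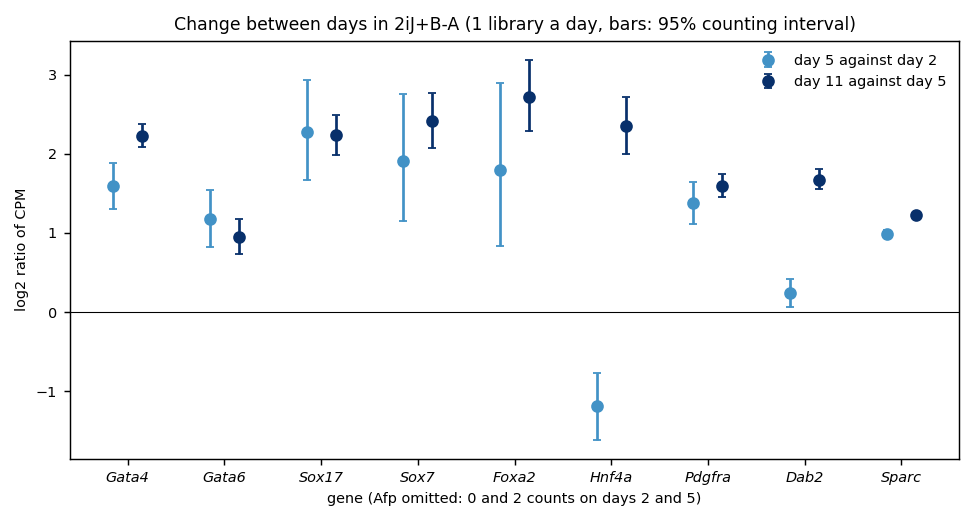
For 9 genes the log2 ratio of CPM is plotted for day 5 against day 2 (light) and day 11 against day 5 (dark) of 2iJ+B-A, 1 library a day, with bars for the 95% counting interval. Hnf4a is the only point below 0, at -1.19 in the first step, and Afp is left out because it had 0 and 2 counts on days 2 and 5.

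A slope on log2(day) was positive for all 10 genes in the fit over the 8 libraries, but none passed the threshold of 0.05 on the Benjamini-Hochberg adjusted p in edgeR's quasi-likelihood test, and 0% of the 16961 genes tested did. The slope, in log2 units for each doubling of time, was 0.89 (SE 0.10) for Sparc, 1.82 (SE 0.24) for Sox17, 1.20 (SE 0.18) for Pdgfra and 1.54 (SE 0.28) for Gata4. Their unadjusted p in edgeR were 0.000234, 0.000606, 0.00107 and 0.00241, with an adjusted p of 0.827 for each. Counting unadjusted p below the same 0.05, 6 of the 10 genes had a higher slope (the others being Dab2 and Afp), against 3.38% of all genes. DESeq2's Wald test called 4 of the 10 with a higher slope (Gata4, Sox17, Pdgfra and Sparc) against 0.489% of all genes. The edgeR fit has 2 residual degrees of freedom, and its calls turned on the mesoderm libraries, which do not enter the slope itself: without that of day 3 it called 8 of the 9 genes tested (1.60% of all genes), and without that of day 4 it called 9 of 10 (1.97%), all but Hnf4a, each with 1 residual degree of freedom.

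Genes tied to the later endoderm lineages split. Of 14 genes of parietal endoderm and basement membrane, 12 were at least 2-fold higher on day 11 than on day 2 of 2iJ+B-A, against 10.5% of all genes. None was 2-fold lower, against 8.57%, and the median log2 ratio was 2.26. The collagen IV chains led in level: Col4a1 was at 115, 434 and 1334 CPM and Col4a2 at 59.1, 272 and 759 CPM on days 2, 5 and 11. The laminin chain Lama1 stood at 35.0, 60.0 and 444 CPM, the collagen chaperone Serpinh1 at 86.3, 167 and 318 CPM and the parathyroid hormone receptor Pth1r at 8.97, 9.16 and 48.7 CPM. In the slope 8 of the 14 had an unadjusted p below 0.05 and a positive sign in edgeR, against 3.38% of all genes. None passed the adjusted threshold, as for 0% of all genes.

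The visceral endoderm list was mostly near the limit of detection. Of 15 genes, 13 had more than 3 counts on day 2 or day 11. Of these 13, 6 were at least 2-fold higher on day 11, against 10.5% of all genes, and 2 at least 2-fold lower, against 8.57%. The 2 lower genes, Apoa2 and Apoa4, each went from 0.204 to 0.033 CPM, values near the floor of 3 counts. The endocytic receptors Cubn and Lrp2 reached 31.5 and 253 CPM on day 11, from 3.75 and 82.0 CPM on day 2, and their partner Amn 6.44 CPM from 2.65 CPM. The ligand Ihh went from 1.14 to 8.72 CPM. Among the secreted proteins of this tissue, the retinol carrier Rbp4 went from 0.94 to 6.61 CPM and the apolipoprotein gene Apom from 0.94 to 1.82 CPM. The apolipoprotein genes Apoa1, Apoa2, Apoa4, Apob and Apoc2 and the carriers Ttr and Trf were at 0.26 CPM or less on day 11, Trf with 1 count.

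Markers of other lineages on the same days are given beside these values, and their part in the result was not tested. None of the 9 mesendoderm and definitive endoderm genes with more than 3 counts was 2-fold higher on day 11 than on day 2, and the list summed to 13.9, 21.7 and 16.2 CPM over the 3 days, with T at 0.23 CPM on day 11. Cardiac and lateral mesoderm genes summed to 56.1, 140 and 30.4 CPM, with Nkx2-5 at 0.16 CPM on day 11. Fibroblast genes summed to 16.3, 24.4 and 13.5 CPM. Of the 8 genes, 4 were at least 2-fold higher on day 11 than on day 2, against 10.5% of all genes. These were Col3a1 at 1.30 from 0.61 CPM, Lum at 0.68 from 0.04, Postn at 0.81 from 0.12 and Dcn at 0.26 from 0. Another 2 were at least 2-fold lower, against 8.57% of all genes (Col1a1 at 0.62 from 2.08 CPM and Col1a2 at 0.75 from 1.88). Of the 9 blood and endothelial genes with more than 3 counts, 3 were at least 2-fold higher and 1 at least 2-fold lower, against the same shares. Leaving aside Gata2 at 120 CPM, the list was led on day 11 by Tek at 13.0 CPM. The 6 pluripotency genes summed to 2477, 2705 and 3128 CPM, with Pou5f1 at 1075 CPM on day 11, while Nanog stood at 581, 506 and 538 CPM. Of the FGF genes, Fgf4 was at 182, 159 and 220 CPM and Fgfr2, the receptor tied to primitive endoderm along with Fgfr1, at 25.7, 22.5 and 15.4 CPM. From day 2 to day 11 Fgfr1 went from 107 to 95.8 CPM, Fgfr3 from 0.734 to 2.64 CPM and Fgfr4 from 1.26 to 8.56 CPM. In the list of FGF inputs, PDGF ligands and Nanog, 5 of 9 genes with more than 3 counts were at least 2-fold higher, against 10.5% of all genes. None was 2-fold lower, against 8.57%, and the median log2 ratio was 1.05.

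**Figure D4:**
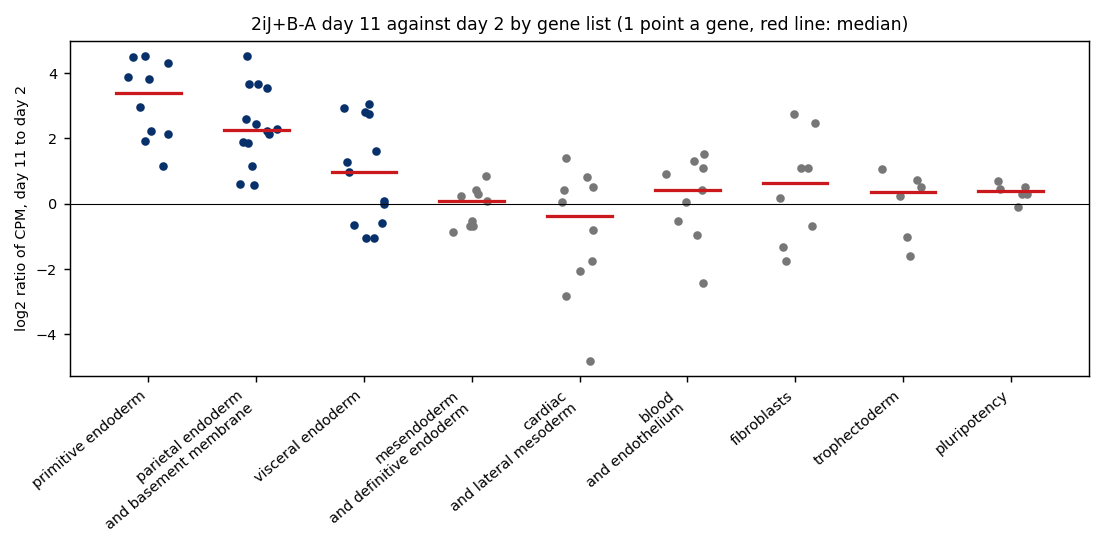
Each point is the log2 ratio of CPM of a gene between day 11 and day 2 of 2iJ+B-A, 1 library each, with 0 counts set to the floor of 3 counts, grouped by gene list on the horizontal axis, and a red line at the median of each list. Medians are 3.39 for primitive endoderm, 2.26 for parietal endoderm and basement membrane and 0.96 for visceral endoderm, and lie between -0.37 and 0.64 for the other 6 lists shown. The list of FGF inputs and Nanog is not plotted, and its median is 1.05.

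Setting 2iJ+B-A beside its 2iJ control asks what BMP4 and ALK5 inhibition add under a blocked JAK pathway. At the matched day 5, Sox17 was 14.6-fold higher with BMP4 and the ALK5 inhibitor (7.51 to 32.5, from 9 counts in 2iJ), Sox7 11.2-fold (4.92 to 31.3), Foxa2 10.0-fold (3.67 to 38.2), Gata6 4.10-fold, Dab2 3.82-fold, Pdgfra 3.22-fold, Gata4 2.87-fold and Sparc 2.48-fold. These were 8 of the 9 genes with more than 3 counts, against 13.8% of all genes, and none was 2-fold lower, against 7.41%. Hnf4a, at 0.939-fold (0.668 to 1.32), was not distinguishable at this depth. Such a rise was not particular to the list. At least 2-fold higher were also 9 of 14 basement membrane, 4 of 6 trophectoderm and 5 of 10 cardiac and lateral mesoderm genes. Their median log2 ratios were 1.259, 1.895 and 1.149, against 1.933 for the members. Of 10 mesendoderm and definitive endoderm genes, 3 were at least 2-fold higher and 3 lower.

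Over the 3 days together the fitted change against 2iJ was positive for all 10 genes and passed for none in edgeR, as for 0% of all genes, with a lowest adjusted p of 0.244 over the 16961 tested. Without adjustment 2 genes fell below 0.05, Sox17 (log2 fold change 4.77, SE 1.96) and Dab2 (2.62, SE 0.92), against 4.00% of all genes higher by that rule. DESeq2 called these same genes, Sox17 with an adjusted p of 0.0392 and Dab2 with 0.03, and 1.07% of all genes as higher. All 3 libraries of 2iJ+B-A lay above that of 2iJ for 7 of the 10 genes, as they did for 33.9% of all genes. The exceptions were Gata4, which on day 2 stood at 5.18 against 5.41 CPM, Hnf4a, which on day 5 stood at 2.45 against 2.61 CPM, and Afp, which had 0 counts both in 2iJ and on day 2.

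Adding the JAK inhibitor alone, at day 5, went with smaller values. Gata4 was 2.34-fold (1.73 to 3.20), Gata6 2.28-fold (1.39 to 3.83) and Pdgfra 2.07-fold (1.53 to 2.80) higher in 2iJ than in 2i, which makes 3 of the 9 genes above 3 counts, against 5.30% of all genes, and no gene of the list was 2-fold lower, against 2.75%. The shift was larger in other lists: 6 of 10 cardiac and lateral mesoderm genes and 6 of 9 blood and endothelial genes were at least 2-fold higher. Their median log2 ratios were 1.24 and 1.39, against 0.546 for the members. Sparc was 1.10-fold and Dab2 1.23-fold (0.965 to 1.58) of its 2i level. Sox17, Sox7 and Foxa2 had 12 counts or fewer in both libraries, and no difference was detectable at this depth.

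Mesoderm progenitors were compared with 2iJ+B-A to set the endoderm genes against a lineage that also uses GATA factors. Pdgfra rose and Hnf4a fell, 1 of 10 genes in each direction, against 11.5% of all genes higher, 15.5% lower and 27.0% in either direction. Pdgfra averaged 193 CPM ± 66.6 (SD, n = 2) in mesoderm progenitors against 24.3 CPM ± 22.8 (SD, n = 3) in 2iJ+B-A (log2 fold change 3.00, SE 0.78, edgeR adjusted p = 0.0338). Hnf4a averaged 0.353 CPM ± 0.0493 (SD, n = 2) against 6.83 CPM ± 5.12 (SD, n = 3) (-4.25, SE 0.86, edgeR adjusted p = 0.0167). Gata6 (2.69, SE 0.80, edgeR adjusted p = 0.0501) and Gata4 (2.39, SE 1.00, edgeR adjusted p = 0.125) had positive fitted values and did not pass. Gata6 passed in DESeq2 (adjusted p = 0.00143), which called 4 of the 10 members and 32.4% of all genes. Neither call held in every fit without a library: the adjusted p of Pdgfra was 0.0862 without mesoderm day 4 and 0.106 without day 5 of 2iJ+B-A, that of Hnf4a 0.0511 and 0.0539 without mesoderm day 3 and day 4.

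The remaining members gave fitted values of -2.26 (SE 1.21) for Sox17, -2.17 (SE 1.61) for Foxa2, -1.42 (SE 0.60) for Sparc, -1.14 (SE 0.63) for Dab2, -0.25 (SE 1.70) for Afp and -0.19 (SE 1.48) for Sox7, none past the threshold. The 2 mesoderm days differed strongly for some of them. Sox7 was 25-fold (14.1 to 48.9), Gata6 4.96-fold and Gata4 2.34-fold higher on day 4 than on day 3, 3 of 10 genes against 10.1% of all genes. Afp was 9.84-fold lower (3 against 30 counts, ratio 0.102, interval 0.0198 to 0.327) and Foxa2 also lower (2 against 55 counts, ratio 0.0369, interval 0.0044 to 0.140), against 12.5% of all genes. Sox17 had 65 counts on each day.

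Around these members, 4 of the 9 visceral endoderm genes tested were lower in mesoderm progenitors (among them Amn, Lrp2 and Apom) and none was higher by the edgeR adjusted p, against 15.5% of all genes lower. Of the 14 basement membrane genes 2 were lower (Nid1 and Nid2), a share near that background. By the same test 6 of 9 mesendoderm genes and 5 of 10 cardiac and lateral mesoderm genes were higher, among them Mesp1 (log2 fold change 9.37, SE 1.65) and Isl1 (4.26, SE 0.77), against 11.5% of all genes higher. Of the paralogs, Gata2 was lower (-4.02, SE 0.35) and Gata5, a cardiac paralog of Gata4, was at 47.2 CPM on mesoderm day 4 against 1.30 CPM or less in each library of 2iJ+B-A. The levels of day 11 in 2iJ+B-A and of day 4 in mesoderm progenitors were nearest for Sox7, at 13.9 and 9.53 CPM. Sox17 was 11.5-fold (8.91 to 15.0) and Hnf4a 32.2-fold (18.2 to 62.8) higher on that day of 2iJ+B-A, while Gata6 was 6.15-fold, Pdgfra 4.80-fold and Gata4 3.10-fold lower. In all, 6 of 10 genes were at least 2-fold higher, against 24.8% of all genes, and 3 were lower, against 17.9%.

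**Figure D5:**
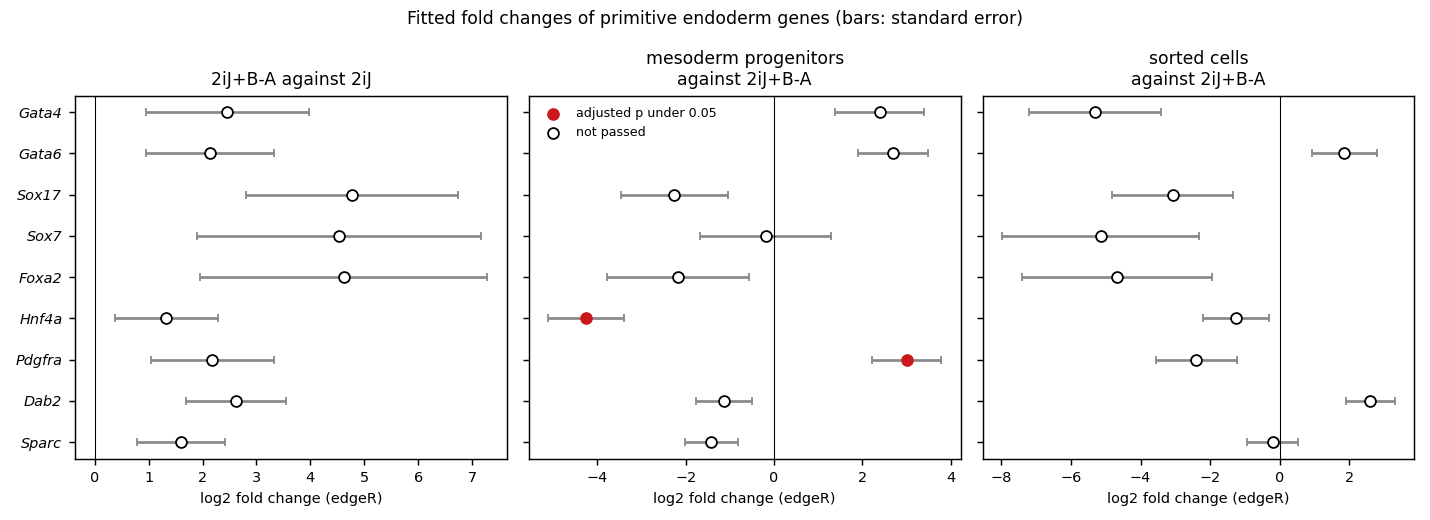
For 9 genes the log2 fold change fitted by edgeR is shown with its standard error as a bar, in 2iJ+B-A against 2iJ (left), mesoderm progenitors against 2iJ+B-A (middle) and sorted cells against 2iJ+B-A (right), filled where the adjusted p was below 0.05. Pdgfra at 3.00 and Hnf4a at -4.25 in the middle panel are the only filled points, and Afp is left out because it had 0 counts in several groups.

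The sorted cells were taken on day 2, and against the unsorted day 2 culture in the same signals the list split. Dab2 was 11.6-fold (10.6 to 12.9), Gata6 8.93-fold (7.15 to 11.3) and Sparc 2.14-fold higher, 3 of the 9 genes with more than 3 counts, against 17.8% of all genes. Gata4 was 6.84-fold lower, with 15 counts, and Hnf4a 2.01-fold lower. Sox7 and Foxa2, with 3 counts each in the sorted library, had ratios of 0.219 (0.041 to 0.756) and 0.338 (0.0605 to 1.28), which brings the lower genes to 4, against 16.9% of all genes. Sox17 was at 1.10-fold (0.597 to 2.00) and Pdgfra at 0.699-fold (0.532 to 0.913).

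Against all 3 days of 2iJ+B-A no member passed in edgeR, where 5.42% of all genes did (3.34% higher, 2.08% lower). Dab2 (log2 fold change 2.61, SE 0.70) had an adjusted p of 0.078 and Gata4 (-5.31, SE 1.90) of 0.14, 2 members had an unadjusted p below 0.05, against 27.0% of all genes, and DESeq2 called 3, against 15.9%. The sorted cells also carried 773 CPM of Lrp2, the endocytic receptor that Dab2 serves, against 82.0 CPM in the unsorted day 2 culture. Of 6 trophectoderm genes, 2 passed as higher in edgeR (Cdx2 and Tead4), against 3.34% of all genes. The cells were sorted on CDX2-GFP, so a higher Cdx2 was set by the sort. Elf5, Gata3, Tfap2c and Krt7 did not pass. Fibroblast genes were also higher in the sorted cells: 7 of 8 were at least 2-fold above day 2 of the unsorted culture, against 17.8% of all genes. They summed to 111 CPM against 13.5 to 24.4 CPM over the days of 2iJ+B-A. Of the 7 tested, 2 passed as higher in edgeR, Col1a1 (42.1 CPM) and Col3a1 (12.7 CPM), against 3.34% of all genes. Sparc is made by fibroblasts too, and the part of these cells, of the line and of the high unmapped share in the values of the sorted library was not tested.

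The genes most like Gata4, Gata6 and Sox17 over the 8 libraries were sought by Pearson's r of log2 CPM among 12461 genes, as a description of 8 points that share culture and day. For Gata4 they were Ccny (0.989), Leprel1 (0.983), Bmi1 (0.981), Usp27x (0.973) and Serpinh1 (0.972), with Pdgfra at rank 28 (0.953). For Gata6 they were Sgcb (0.985), Stx18 (0.980), Ccdc80 (0.975), Masp1 (0.974) and Adck2 (0.971), with Pdgfra the nearest member at rank 1162 (0.754). For Sox17 they were Col4a2 (0.985), Cited1 (0.983), Col4a1 (0.982), Slc18a1 (0.978) and Lama1 (0.973), 3 of which are basement membrane chains, and Foxa2 (0.850, rank 55), Sparc (0.849) and Sox7 (0.814) were nearer to it than Gata4 (0.577) or Gata6 (0.494). Hnf4a ran against Gata4 (-0.463) and Pdgfra (-0.599) over the same libraries.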

How the data were processed

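The authors trimmed paired-end poly-A reads with TrimGalore and cutadapt, mapped them to NCBIM37 with STAR 2.4.2a and deposited raw read counts per gene for 8 libraries. The strand-specific kit makes the reverse-strand column the sense count, and the 4 rows that name no gene, holding 19.9% to 54.5% of reads, were left out. The depositors' notes also name bcl2fastq 2.17. Symbols came from GENCODE vM1 (37205 of 37620 identifiers named). Experiment-day correction by the authors does not enter these counts.

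Counts were divided by 19810855 to 31453888 gene reads to give CPM, with exact 95% Poisson intervals, and by exon length to give TPM (Python 3.11.15, scipy 1.17.1). Genes with at least 10 counts in 2 libraries (16961) entered edgeR 4.0.16 (R 4.3.3; TMM, quasi-likelihood test, 5 group coefficients, 3 residual degrees of freedom, Benjamini-Hochberg threshold 0.05). A further fit added a slope on log2(day) in 2iJ+B-A. Pairs of libraries were compared by ratio, with no test, where either held more than 3 counts, and called at 2-fold. DESeq2 1.42.0, other normalization, filters, strands, sample sets and left-out libraries were alternatives, and the scripts were tested on simulated data. The named genes were all 10 members, genes of fixed related lists past the threshold or by range, and the 5 genes most like Gata4, Gata6 and Sox17. Gata5, Pdgfa, Fgf4, the FGF receptors and the basement membrane and visceral endoderm genes given for the days of 2iJ+B-A were picked from those lists after their values were seen. Members and lists were chosen with earlier results of these data known. A gene of the visceral endoderm list is counted with it but not reported here by name.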

Additional observations from a re-analysis of the deposited data

How the results depend on the processing

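The number of members past the threshold depended on the model more than on the normalization. With DESeq2 it was 4 in mesoderm progenitors against 2iJ+B-A, 3 in the sorted cells, 2 in 2iJ+B-A against 2iJ and 4 in the slope on day, where edgeR gave 2, 0, 0 and 0. In the mesoderm and sorted comparisons DESeq2 also called 32.4% and 15.9% of all genes. The cause of the difference was not tested. Without the filter on low counts 1 member (Dab2) passed in the sorted cells. Leaving out in turn each of the 2 mesoderm and 3 2iJ+B-A libraries (the other groups hold 1 library and were kept) gave 0 to 3 members in the mesoderm comparison, 0 to 1 in the sorted cells, 0 in 2iJ+B-A against 2iJ and 0 to 9 in the slope. The 0 arose without mesoderm day 4, the count was 1 without day 5 of 2iJ+B-A, and the 1 in the sorted cells arose without day 11 of 2iJ+B-A (Dab2). The slope gave 8 and 9 without mesoderm day 3 and day 4. Over all genes these fits called 2019 to 4538 genes in the mesoderm comparison (4584 with all libraries) and 37 to 2052 in the sorted cells (919), where the fit of the 2 groups alone called 1911 and the fit at day 2 called 27. Pooling 2i with 2iJ gave 150 genes and no member.

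Gata6 in mesoderm progenitors passed with DESeq2 (adjusted p = 0.00143), without the filter (edgeR adjusted p = 0.0236), with unstranded counts (edgeR adjusted p = 0.0469), with the 2 groups alone (edgeR adjusted p = 0.0492) and without mesoderm day 3 (edgeR adjusted p = 0.0134). Direction turned in 8 fits: in mesoderm progenitors Sox7 went to 0.80 without mesoderm day 3 and to 1.66 without day 11 of 2iJ+B-A (range over left-out libraries -3.85 to 1.66), and Afp to 0.64 without mesoderm day 4 (-0.81 to 0.64). In the sorted cells compared at day 2 with a slope, Sox17 went to 0.22, Sparc to 1.20 and Afp to 1.30, and Sparc went to 0.59 without day 11 of 2iJ+B-A (-0.58 to 0.59). The slope of Hnf4a went to -0.96 without day 11 (-0.96 to 2.09). Over the single-gene values 349 alternatives kept direction and side of the threshold, 36 moved past it and 4 fell short of it. RLE normalization and unstranded counts changed no count of members by over 1.5 times, and the counts of 2-fold differences between 2iJ and 2i and between the mesoderm days were the same with TMM-scaled library sizes and unstranded counts. No paired analysis was possible because the groups compared share fewer than 2 days or replicate numbers in the labels.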

Other observations

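The paralog Gata2, a trophoblast and blood factor, was at 3.02 CPM in 2i, 12.3 CPM in 2iJ, 172, 210 and 120 CPM on days 2, 5 and 11 of 2iJ+B-A, 460 CPM in the sorted cells and 8.01 and 12.4 CPM in mesoderm progenitors, and so was already high on day 2, when Gata4 was at 5.18 CPM. Gata3, of the same family, was at 6.61 CPM in 2i and at 15.7, 42.5 and 32.6 CPM over the days of 2iJ+B-A.

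The lincRNA 1010001N08Rik lies on the strand opposite to Gata6 and shares 58 exon bases with it. It had 12 counts on day 3 and 244 counts (7.88 CPM) on day 4 of mesoderm progenitors and at most 16 counts in each other library but day 11 of 2iJ+B-A, where it had 32 counts. Gata6 was 4.96-fold higher on day 4 than on day 3. The sense counts of Gata6 come from a strand-specific protocol, and 98 reads fell on its opposite strand on day 4.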
